A study of Mus musculus with 8 samples.

Results

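The neighbourhood described here is the 200 kb stretch around the promoter of Pou3f3 at chr1:42600000-42800000 of mm10, read as contacts of a viewpoint placed at the Pou3f3 transcription start. Its members were the restriction fragments whose midpoint lay in that stretch and more than 5 kb from the centre of the viewpoint at position 42697534. There were 449 such fragments, of 83192 fragments listed for the Pou3f3 viewpoint and 460552 listed over the 5 viewpoints of the study. They were chosen by position alone, 227 of them upstream (lower coordinates) and 222 downstream. Together they covered 99.3% of the stretch outside the excluded 5 kb on either side. The centre was inferred as the middle of the longest stretch around the gene without listed fragments, chr1:42695817-42699251. The annotated Pou3f3 start lies at -1.77 kb from it, and distances from Pou3f3 below are measured from this inferred centre.

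The libraries came from a chromosome conformation assay on mouse cells, in which crosslinked chromatin is cut, ligated and read out from a chosen viewpoint. There were 8 libraries, 2 from each of 4 cell types. N2a is a mouse neuroblastoma line, a tumour-derived line grown in serum. Neurons were differentiated from neural stem cells of E14.5 embryos, in a serum-free neuronal medium. NSC are neural stem cells of E14.5 mouse cortex, expanded with the growth factors bFGF and EGF. ES are embryonic stem cells, cultured with serum and the cytokine LIF on a gelatin coat. No group carried an engineered allele or a drug treatment in the labels, and the mouse strain was not used here. The labels do not say whether the 2 libraries of a cell type were separate cultures, and p values measure no more than the spread among these libraries. Contact counts hold no expression, so the cell types could not be checked against marker genes.

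Pou3f3, also called Brn-1, encodes a POU-domain transcription factor of the developing forebrain and kidney. Like other developmental regulators it lies in a region with few other coding genes, flanked by long noncoding RNA (lncRNA) genes that are active in neural tissue. Pantr1 lies directly upstream of it and Pantr2 a short way downstream, and both were catalogued as neighbours of Brn-1 in brain. Dalir, also called Dali, is a further downstream lncRNA gene known in mouse neuroblastoma cells to regulate Pou3f3. A contact count says how often a stretch was ligated to the promoter, and such counts fall steeply with distance whatever the gene.

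In the RefSeq annotation of GRCm38.p6, the assembly that mm10 stands for, 7 genes overlap the neighbourhood, and Pou3f3 is the only coding one. Gm30248 lies farthest upstream at chr1:42598931-42641594 and Pantr1 at chr1:42648200-42694825. Pou3f3 itself spans chr1:42695768-42700210, all of it within the excluded stretch, so no counted fragment lies in it. 2900092D14Rik follows at chr1:42700336-42703176, Pantr2 at chr1:42707061-42713454 and Dalir at chr1:42750712-42752886. Gm46091, at chr1:42684538-42744791, runs across Pantr2 and part of Pantr1, so that its fragments and theirs are partly the same.

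Of these starts, 3 carry the results below and their sequences are shown. Each is 300 bases of GRCm38.p6 from RefSeq around the annotated start, printed 5′ to 3′ on the gene's own strand. Capitals mark GATC. All 187 fragment ends that fell inside chromosome 1 promoters lay at a GATC, so capitals show where these fragments were cut. The Pou3f3 promoter (chr1:42695518-42695817, plus strand) ends where the stretch without listed fragments begins. The Pantr2 promoter (chr1:42713405-42713704, minus strand) lies in the window that differed between N2a and NSC. The Gm46091 promoter (chr1:42684288-42684587, plus strand) overlaps a fragment cut at its second GATC. That fragment had an authors' q under 0.05 in every library but those of N2a.
Pou3f3: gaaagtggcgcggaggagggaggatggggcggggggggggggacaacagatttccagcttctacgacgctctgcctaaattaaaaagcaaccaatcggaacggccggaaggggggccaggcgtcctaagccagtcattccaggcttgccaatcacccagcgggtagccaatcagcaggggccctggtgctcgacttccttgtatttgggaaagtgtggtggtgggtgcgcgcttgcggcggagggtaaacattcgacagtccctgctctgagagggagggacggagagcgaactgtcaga
Pantr2: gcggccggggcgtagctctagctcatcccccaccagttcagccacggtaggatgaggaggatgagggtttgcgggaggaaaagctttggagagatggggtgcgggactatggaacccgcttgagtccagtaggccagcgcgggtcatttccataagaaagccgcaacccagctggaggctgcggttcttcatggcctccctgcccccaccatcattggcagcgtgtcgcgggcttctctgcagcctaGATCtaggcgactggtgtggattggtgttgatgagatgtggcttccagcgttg
Gm46091: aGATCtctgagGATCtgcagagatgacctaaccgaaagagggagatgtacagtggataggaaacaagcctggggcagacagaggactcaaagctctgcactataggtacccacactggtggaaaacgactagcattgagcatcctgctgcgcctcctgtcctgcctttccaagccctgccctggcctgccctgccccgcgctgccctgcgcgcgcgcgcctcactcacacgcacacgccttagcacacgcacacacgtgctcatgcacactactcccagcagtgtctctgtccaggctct
The Pou3f3 promoter holds no GATC. The Pantr2 promoter holds 1, and the Gm46091 promoter holds 2. Of 32817 RefSeq mouse promoters of this length, 48.0% hold at least 1. The CCAAT box, searched on both strands, matched 3 times in the Pou3f3 promoter and 2 times in that of Pantr2, against a match in 37.4% of all promoters. The octamer ATGCAAAT, a motif of POU factors found in 1.74% of promoters, matched on neither strand in any of the 6 promoters the RefSeq table gives for the neighbourhood. These are matches of letters only. GC content was 60.3% for Pou3f3, 60.0% for Pantr2 and 59.0% for this start of Gm46091, against a median of 52.7% over all promoters.

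Values below are listed reads, given as a share of each library's chromosome 1 reads beyond 5 kb, in percent. That total ran between 13172 and 58081 reads over the 8 libraries, with NSC replicate 1 the shallowest and N2a replicate 2 the deepest. Between 314 and 434 of the 449 fragments were listed in a library, and 258 in all 8. The nearest counted fragments, just over 5 kb from the centre, held a mean of 0.469% upstream and 0.626% downstream, and the nearest left out, just under 5 kb away, 0.623% and 0.713%. At the outer ends of the stretch the last counted fragments held 0.0214% and 0.00862%, and the first beyond them 0.0152% and 0.0150%. Replicates differed by more than the noise of independently counted reads, a measure that counts repeated in adjacent fragments can inflate. No replicate pair held identical values.

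No difference between the cell types in the share of reads in the whole neighbourhood was detected. It held 22.7% and 25.9% of chromosome 1 reads in N2a, 22.6% and 26.9% in neurons, 22.7% and 29.4% in NSC, and 26.1% and 23.9% in ES. The means were 24.3% ± 2.26 in N2a, 24.8% ± 3.06 in neurons, 26.1% ± 4.77 in NSC and 25.002% ± 1.60 in ES (SD, n = 2 each). The ranges of the 4 cell types overlap. An exact permutation test over the 105 groupings of the 8 libraries gave p = 0.924 (adjusted p = 0.924 over 3 shares). The smallest p it allows is 0.00952. The upstream side alone held 9.25% to 13.6% (exact permutation p = 0.590, adjusted p = 0.886) and the downstream side 10.3% to 16.3% (exact permutation p = 0.362, adjusted p = 0.886).

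Within that total, the layout of the reads varied between libraries. In N2a the upstream side took 54.6% and 52.4% of the neighbourhood's reads, against 40.9% and 46.8% in neurons, 44.7% and 44.6% in NSC, and 44.0% and 42.5% in ES. Both N2a libraries lay above the 6 others, and the neuron libraries spanned those of NSC and ES. The stretch within 20 kb of the centre took 61.7% and 54.2% in N2a, 69.3% and 68.3% in neurons, 65.6% and 69.4% in NSC, and 54.5% and 55.8% in ES. Neurons and NSC thus lay above N2a and ES in every library. Both layouts were noticed in these data and were not tested.

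**Figure D1:**
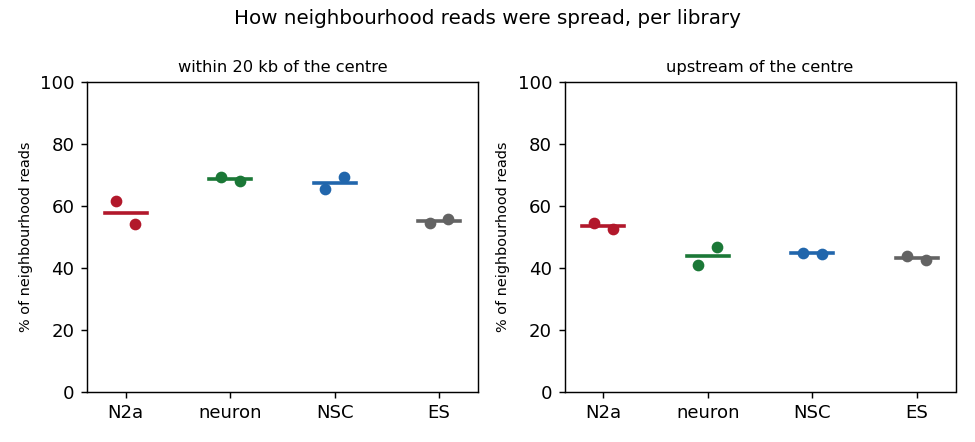
Share of neighbourhood reads (percent, y axis) within 20 kb of the viewpoint centre (left) and upstream of it (right), by cell type; points are the 2 libraries and lines their means. N2a libraries are the highest on the right, at 54.6% and 52.4%, and neuron and NSC libraries the highest on the left, all at 65.6% or above.

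In 5 kb windows, reads were densest within 20 kb of the viewpoint, with a low, uneven level beyond. Downstream they fell from the nearest window outward over that distance. Upstream only N2a fell from the nearest window. Every library of neurons, NSC and ES held more at 15 to 10 kb upstream than at 10 to 5 kb. In NSC these windows held 2.79% and 3.37%, against 2.32% and 2.91%. The neighbourhood holds 38 windows, 19 on each side, and all of them passed the filter on low counts. The window 5 to 10 kb downstream held the most, a mean of 4.63% over the 8 libraries, and the window 10 to 5 kb upstream 2.69%. Beyond 25 kb no window reached 1% in any library. Across the 38 windows, Spearman correlations averaged 0.742 between replicates (4 pairs, 0.639 to 0.844) and 0.681 between cell types (24 pairs, 0.523 to 0.826). These correlations share the fall with distance, and windows of a library share its depth, so they are given as a description.

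**Figure D2:**
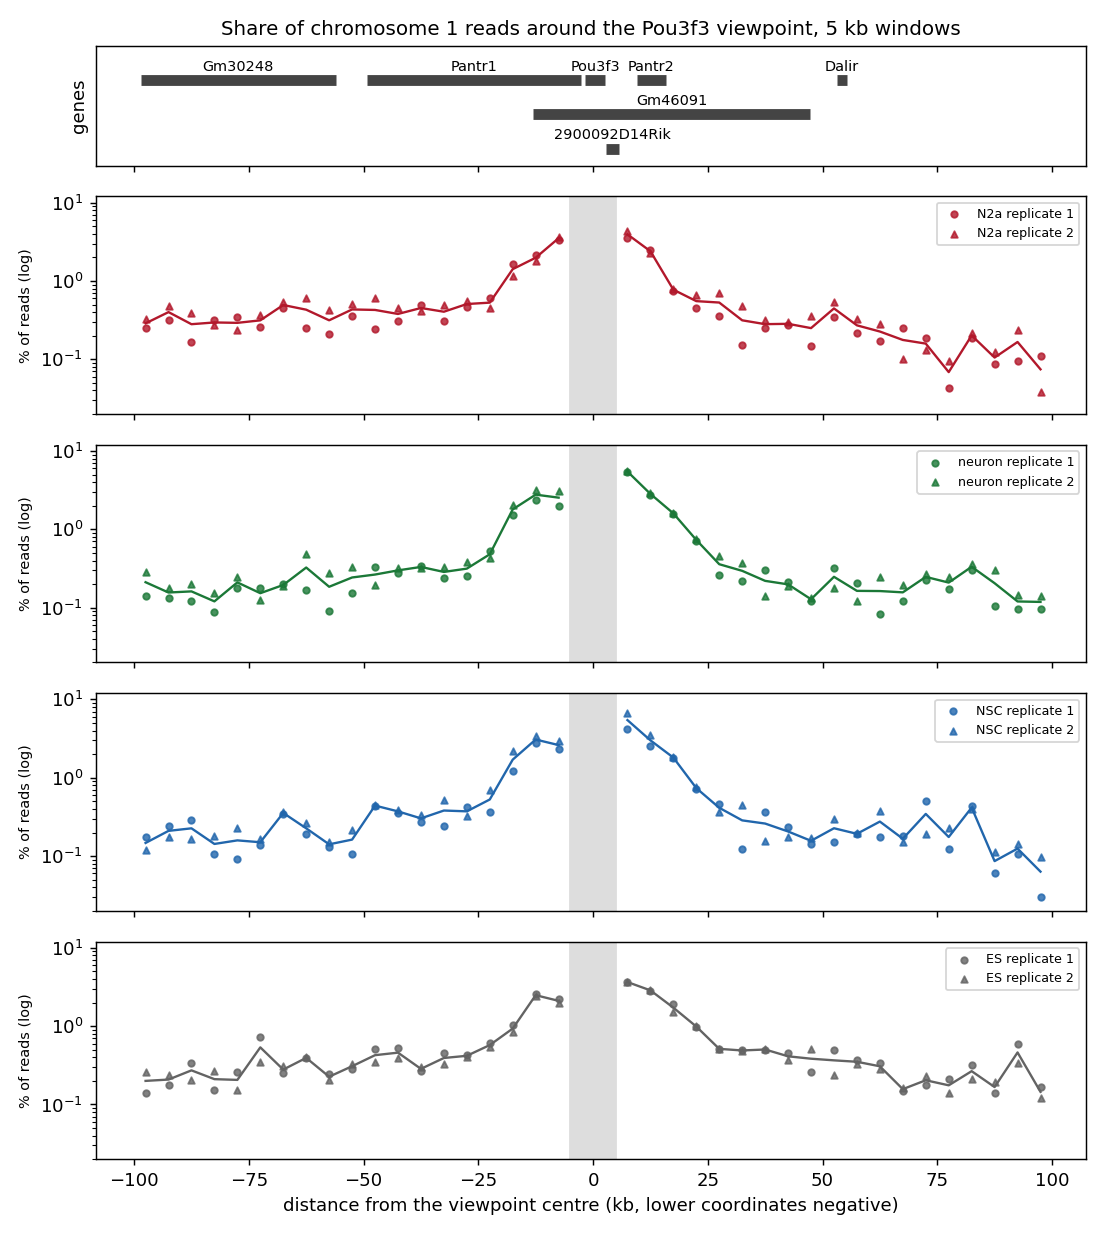
Share of chromosome 1 reads per 5 kb window (percent, log axis) against distance from the viewpoint centre in kb, with annotated genes on top and 1 panel per cell type; circles and triangles are replicates 1 and 2, lines their means, and grey marks the excluded stretch. In all 4 panels reads peak 5 to 10 kb downstream. The N2a panel is lower than the others at 15 to 20 kb, with means of 0.774% in N2a, 1.60% in neurons, 1.81% in NSC and 1.72% in ES.

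N2a cells were compared with NSC, a tumour line against normal neural stem cells. In N2a the window that holds the start of Pantr2 took a smaller share of reads than in NSC, a call that several alternatives did not keep. Most of that window lies beyond the gene. Pantr2 as a whole and Pantr1 did not pass the test. The window 15 to 20 kb downstream, chr1:42712534-42717533, which holds the Pantr2 start, had 0.754% and 0.794% of reads in N2a, against 1.79% and 1.83% in NSC. Neurons had 1.56% and 1.64% there, and ES had 1.93% and 1.52%. The N2a libraries lay below all 6 others, and the 6 others lay close together. The log2 difference of N2a over NSC was -1.23 (SE 0.29, adjusted p = 0.0038 by edgeR's quasi-likelihood test over all 323 windows within 1 Mb). It was the only neighbourhood window of 38 to pass, against a background of 0.619% of the 323 windows, and the median log2 difference over all 323 was 0.27. DESeq2 passed the same number of windows. Before adjustment, 4 of the 38 had an edgeR p under 0.05, against 39 of the 323.

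The direction held in each alternative, with log2 differences between -1.35 and -1.03, but the call did not. It was lost without N2a replicate 1 (adjusted p = 0.115), N2a replicate 2 (0.105), ES replicate 1 (0.0710) or ES replicate 2 (0.0683). It was also lost with all listed reads as library size (0.0847) and when runs of adjacent fragments were counted as the fewest reads that could give them (0.504). With 2 kb windows, 10 kb windows or a grid moved by 2.5 kb, 0 neighbourhood windows passed in this comparison.

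At finer scale N2a was lower than NSC in the 2 kb windows around the Pantr2 start, but no 2 kb window passed in this comparison. In 2 kb windows, the one 14 to 16 kb downstream held 0.496% and 0.596% in N2a, against 1.24% and 1.37% in NSC (log2 difference -1.25, SE 0.32, edgeR adjusted p = 0.0613). The next one, 16 to 18 kb, held 0.258% and 0.210% in N2a, against 0.782% and 0.588% in NSC (log2 difference -1.55, SE 0.43, edgeR adjusted p = 0.0722). In both windows the N2a libraries lay below the NSC libraries, though neither passed in this comparison. Over all cell types the window 14 to 16 kb downstream did pass (edgeR adjusted p = 0.0488). It was the only 1 of 96 neighbourhood windows of 2 kb to do so. The following window, 18 to 20 kb, held 0.121% and 0.127% in N2a, between the 0.0911% and 0.135% of NSC. On the other side, 12 to 14 kb, in the body of Pantr2, N2a had 0.741% and 0.532%. That range overlaps the 0.456% and 0.786% of NSC. Other 2 kb windows near the viewpoint went either way. N2a was lower than NSC at 14 to 12 kb upstream (log2 difference -0.94, SE 0.35, edgeR adjusted p = 0.288). It was also lower at 6 to 8 kb downstream (-0.59, SE 0.26, edgeR adjusted p = 0.448). At 6 to 4 kb upstream, where only the part beyond 5 kb was counted, it was higher (0.94, SE 0.28, edgeR adjusted p = 0.128).

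The fragment that ends at the Pantr2 start, chr1:42713108-42713454, held 0.0882% and 0.0981% of reads in N2a, from 27 and 57 reads. It held 0.290% and 0.343% in neurons, 0.205% and 0.255% in NSC, and 0.237% and 0.253% in ES. The fragment on the other side of the GATC in the printed Pantr2 promoter, chr1:42713457-42713922, held 0.0653% and 0.0706% in N2a, 0.210% and 0.327% in neurons, 0.251% and 0.231% in NSC, and 0.260% and 0.128% in ES. Both fragments were lower in the N2a libraries than in any other. They lie in the tested window and add no separate evidence.

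**Figure D3:**
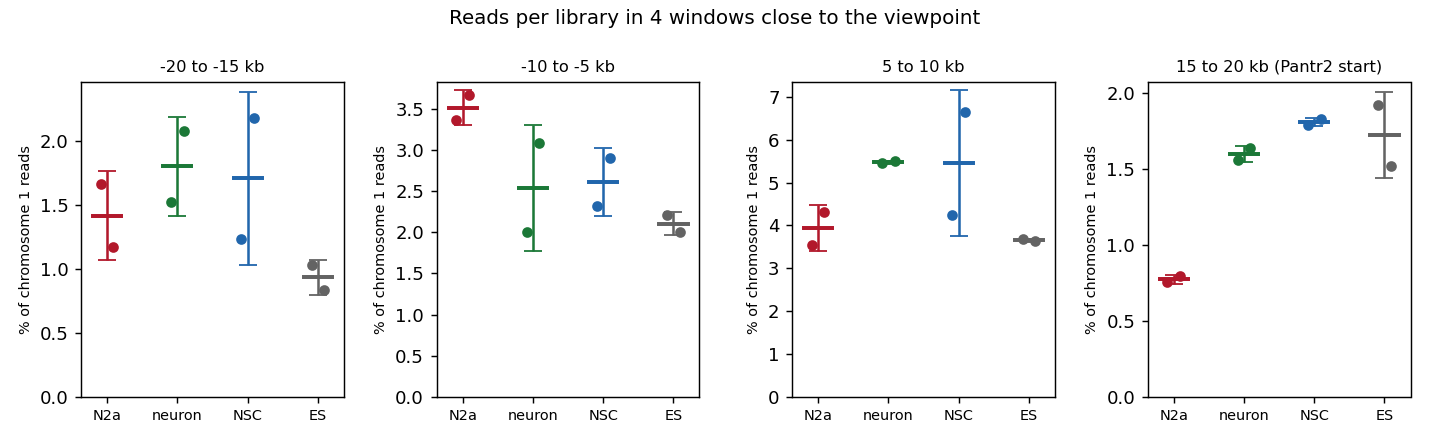
Share of chromosome 1 reads (percent) in 4 windows close to the viewpoint, by cell type; points are libraries, horizontal lines means and bars SD (n = 2). In the window of the Pantr2 start N2a sits at 0.754% and 0.794%, below the 6 other libraries; 10 to 5 kb upstream it sits at 3.37% and 3.66%, above them.

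Over whole genes, no lncRNA gene of the neighbourhood passed any of the 5 tests. The background was 12.5% of 24 genes within 1 Mb over all cell types, 12.5% for NSC over ES, 16.7% for neurons over ES, and 0% for neurons over NSC and for N2a over NSC. Over all cell types, 1 of the 6 counted neighbourhood genes had an edgeR p under 0.05 before adjustment, against 7 of all 24. With DESeq2 1 of the 6 passed, against 6 of the 24. Before adjustment the number was 0 for NSC over ES, for neurons over ES and for neurons over NSC, and 1 for N2a over NSC. Over all 24 genes the numbers were 5, 5, 1 and 2 in that order. DESeq2 passed 0 neighbourhood genes in each of these, against 4, 3, 0 and 0 of the 24.

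Pantr1 took the largest share of the lncRNA genes outside Gm46091, over a counted length of 44.3 kb. It held 9.59% and 9.60% of reads in N2a, 7.88% and 10.3% in neurons, 8.42% and 11.1% in NSC, and 8.58% and 7.55% in ES. N2a lay inside the ranges of neurons and NSC and above both ES libraries. The log2 difference of N2a over NSC was -0.03 (SE 0.22) and that of NSC over ES 0.28 (SE 0.22), and the edgeR test over all cell types gave adjusted p = 0.691. Per kb of counted length Pantr1 had a median of 0.205% over the 8 libraries.

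Pantr2 held 3.02% and 3.001% of reads in N2a, 3.89% and 4.18% in neurons, 3.57% and 4.89% in NSC, and 4.25% and 4.00% in ES. Both N2a libraries were below the 6 others, but the gene as a whole did not pass: the log2 difference of N2a over NSC was -0.49 (SE 0.27, edgeR adjusted p = 0.371), and the test over all cell types gave adjusted p = 0.345. Between NSC and ES the log2 difference was 0.04 (SE 0.27). Per kb, Pantr2 had a median of 0.617%. Set against the stretch at the same distance upstream, inside Pantr1, Pantr2 had more reads in all 8 libraries. That mirror stretch held 2.75% and 2.04% in N2a, 2.94% and 3.65% in neurons, 3.04% and 3.91% in NSC, and 2.86% and 2.59% in ES.

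Gm30248, an uncharacterised lncRNA gene from about 56 kb upstream to beyond the edge of the neighbourhood, held 2.501% and 3.502% in N2a, 1.20% and 2.00% in neurons, 1.65% and 1.74% in NSC, and 2.61% and 2.33% in ES. N2a and ES lay above neurons and NSC in every library. The edgeR test over all cell types missed the threshold (adjusted p = 0.0598), and the log2 difference of N2a over NSC was 0.82 (SE 0.33, adjusted p = 0.156). It passed over all cell types with DESeq2 (adjusted p = 0.0182), with reads within 1 Mb as library size (0.0101) and without neuron replicate 2 (0.0200). Per kb its median was 0.0507%.

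Dalir, at 53 to 55 kb downstream, had few reads in every library. Its 7 fragments held 0.0784% and 0.227% in N2a, 0.156% and 0.0767% in neurons, 0.0987% and 0.104% in NSC, and 0.179% and 0.125% in ES. Both NSC libraries lay below both ES libraries, while the ranges of N2a and neurons spanned those of NSC, and edgeR gave adjusted p = 0.747 over all cell types. Its median per kb was 0.0526%, and it exceeded the mirror stretch upstream in 5 of 8 libraries. Of the 2 remaining genes, Gm46091 held 13.1% to 19.1% (edgeR adjusted p = 0.691) and 2900092D14Rik, of which 3 fragments lie beyond 5 kb, 0.980% to 2.16% (edgeR adjusted p = 0.332).

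**Figure D4:**
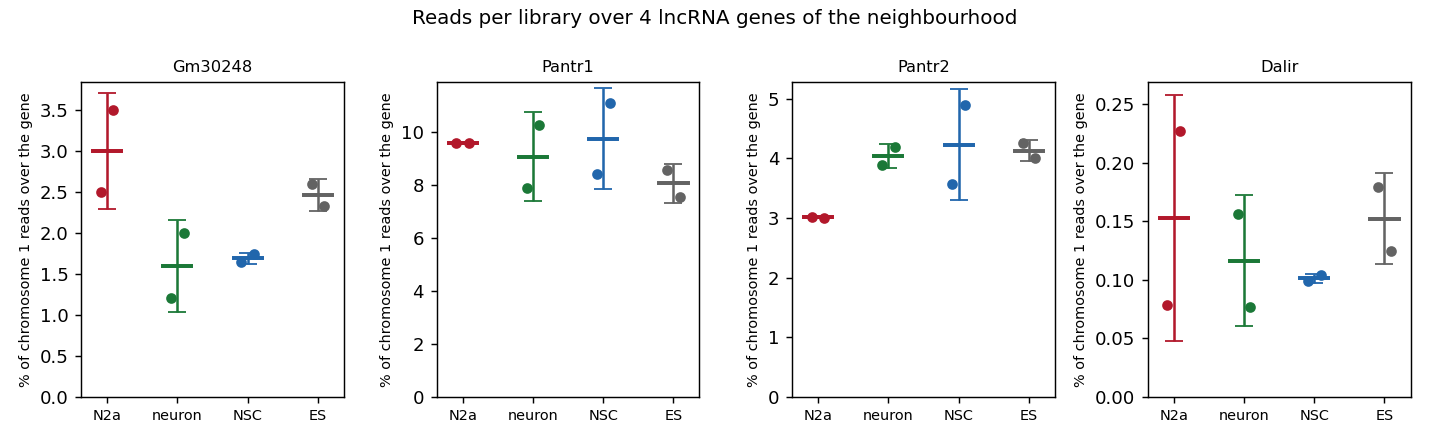
Share of chromosome 1 reads over 4 lncRNA genes (percent, separate axes from 0), by cell type; points are libraries, lines means and bars SD (n = 2). Pantr2 is lowest in N2a, at 3.02% and 3.001%, and Pantr1 in N2a, at 9.59% and 9.60%, lies inside the ranges of neurons and NSC and above both ES libraries.

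Neurons and NSC were each compared with ES to ask how the neighbourhood differs between neural and pluripotent cells. Contacts 20 to 50 kb downstream, the stretch between Pantr2 and Dalir that the 3' part of Gm46091 covers, were lower in both neural cell types. That band held 1.83% and 2.04% of reads in neurons, 2.04% and 2.08% in NSC, and 3.20% and 3.38% in ES. N2a had 1.62% and 2.80%. The ES libraries were the highest of the 8. The log2 difference was -0.77 for neurons over ES (SE 0.23, edgeR adjusted p = 0.0080 over 14 bands) and -0.68 for NSC over ES (SE 0.23, edgeR adjusted p = 0.0263). The comparisons share the ES libraries. In each, 1 of 8 neighbourhood bands passed, a share below the background of 28.6% of the 14 bands.

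The neuron difference was lost without neuron replicate 1 (edgeR adjusted p = 0.198), neuron replicate 2 (0.138) or NSC replicate 2 (0.0737), and that of NSC without neuron replicate 1 (0.105), neuron replicate 2 (0.123), NSC replicate 2 (0.312), ES replicate 1 (0.0694) or ES replicate 2 (0.104). Both were lost with all listed reads as library size (0.159 for neurons and 0.221 for NSC) and with the fewest reads per run (0.332 and 0.818), where the log2 difference of NSC over ES was -0.11.

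Upstream, 1 window went the other way in neurons. At 20 to 15 kb upstream, inside Pantr1, neurons held 1.52% and 2.07% of reads, against 1.03% and 0.835% in ES. The log2 difference of neurons over ES was 0.95 (SE 0.29, edgeR adjusted p = 0.0234). N2a had 1.66% and 1.17% there, and NSC had 1.23% and 2.18%. Both ES libraries were thus the lowest of the 8. This was the only one of 38 windows to pass for neurons over ES, against a background of 4.33% of 323. Of the 38, 6 had an edgeR p under 0.05 before adjustment, against 40 of the 323. DESeq2's own test passed 5 of the 38, against 25 of the 323. Of those 5, 2 were higher and 3 lower in neurons than in ES. For NSC over ES 0 of 38 passed (background 1.86%). In that comparison, 5 of the 38 had an edgeR p under 0.05 before adjustment, against 41 of the 323. With DESeq2 1 of the 38 passed, against 10 of the 323. In NSC over ES the same window had a log2 difference of 0.87 (SE 0.29, edgeR adjusted p = 0.0818), close to that of neurons. Neurons over NSC was 0.07 (SE 0.28, adjusted p = 0.991).

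That window's call for neurons over ES was lost without N2a replicate 1 (edgeR adjusted p = 0.0582), N2a replicate 2 (0.0600), neuron replicate 2 (0.385), ES replicate 1 (0.309) or ES replicate 2 (0.594). It was also lost with TMM factors (0.0534), with all listed reads as library size (0.312) and with the fewest reads per run (0.0731), and log2 differences stayed between 0.71 and 1.15. With 2 kb windows, 10 kb windows or the moved grid, 0 neighbourhood windows passed. With the replicate block 3 passed.

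Neurons compared with NSC, the cells they came from, showed no window, band or gene past the threshold in the neighbourhood. By edgeR 0 of 38 windows passed (background 0% of 323). Among the 38, 0 had an edgeR p under 0.05 before adjustment, against 15 of the 323. With DESeq2 0 of the 323 passed. Of the bands, 0 of 8 passed (background 0%). The median log2 difference over the 38 windows was -0.08, against 0.07 over all 323. For the window of the Pantr2 start the log2 difference of neurons over NSC was -0.18 (SE 0.28), and for the window 5 to 10 kb downstream 0.01 (SE 0.20).

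Over all 4 cell types together, 2 of 38 windows passed in edgeR, against a background of 4.64% of 323. One was the window of the Pantr2 start (adjusted p = 0.0041), whose call was lost in the same 6 settings as for N2a over NSC: without N2a replicate 1 (0.169), N2a replicate 2 (0.121), ES replicate 1 (0.125) or ES replicate 2 (0.0505), with all listed reads as library size (0.0789) and with the fewest reads per run (0.591). The other was 5 to 10 kb downstream, from the end of 2900092D14Rik to the near end of Pantr2 (adjusted p = 0.0499). It held 3.56% and 4.32% in N2a, 5.45% and 5.50% in neurons, 4.24% and 6.65% in NSC, and 3.68% and 3.63% in ES. The neuron libraries lay above those of N2a and ES, and the NSC libraries spanned them. The adjusted p was 0.0519 or higher without the low-count filter, with DESeq2's own test, with TMM factors, with any other library size, with the fewest reads per run, with the replicate block, and without any 1 library of N2a, neurons or ES. The number of passing windows became 0 when either ES library was left out, 1 when either neuron library was, and 4 when either NSC library was.

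Other windows were set apart in their values without passing. At 10 to 5 kb upstream, next to the Pou3f3 promoter and inside Pantr1, N2a held 3.37% and 3.66%, neurons 2.00% and 3.08%, NSC 2.32% and 2.91%, and ES 2.21% and 2.00%. Both N2a libraries lay above the 6 others (edgeR adjusted p = 0.154 over all cell types). In 2 kb windows this excess lay in the part nearest the viewpoint, 6 to 5 kb upstream. N2a held 2.24% and 2.42% there, against 0.975% to 1.60% in the others. At 10 to 8 and 8 to 6 kb upstream the N2a libraries overlapped those of NSC. At 15 to 10 kb upstream, also inside Pantr1, N2a held 2.15% and 1.81%, below the 2.40% to 3.37% of the 6 other libraries. The log2 difference of N2a over NSC was -0.64 there (SE 0.24, edgeR adjusted p = 0.182). At 45 to 50 kb downstream ES held 0.260% and 0.509%, against 0.123% to 0.353% in the other libraries (edgeR adjusted p = 0.300 over all cell types). At 75 to 70 kb upstream, in Gm30248, ES replicate 1 held 0.725% and ES replicate 2 0.347%, against 0.127% to 0.370% elsewhere, an overlap through N2a replicate 2 (edgeR adjusted p = 0.0551). At 90 to 95 kb downstream ES held 0.589% and 0.335%, above the 0.0947% to 0.238% of the other 6 libraries (edgeR adjusted p = 0.0642). Both windows passed with DESeq2's own test (adjusted p = 0.0096 for the upstream and 0.0183 for the downstream one), with reads within 1 Mb as library size (0.0235 each), with the replicate block (0.0336 and 0.0350) and with TMM factors (0.0497 and 0.0425). The upstream one also passed with the fewest reads per run (0.0332), and the downstream one with DESeq2 size factors (0.0497). Both passed without N2a replicate 1 (0.0295 upstream and 0.0343 downstream) or N2a replicate 2 (0.0397 and 0.0258). Their highest adjusted p, 0.632 and 0.69998, came without ES replicate 1.

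By distance band, 2 of 8 neighbourhood bands passed over all cell types in edgeR, against a background of 35.7% of 14 bands. They were 20 to 50 kb downstream (adjusted p = 0.0168) and 100 to 50 kb upstream, most of which is Gm30248 (adjusted p = 0.0168). The downstream call was lost without neuron replicate 1 (0.223), neuron replicate 2 (0.208), NSC replicate 2 (0.211), ES replicate 1 (0.120) or ES replicate 2 (0.181). The upstream one was lost without N2a replicate 2 (0.211), NSC replicate 1 (0.0959), NSC replicate 2 (0.122) or ES replicate 2 (0.0689), and both with all listed reads as library size (0.339 each) and with the fewest reads per run (0.702 downstream and 0.0609 upstream). The upstream band held 2.93% and 4.15% in N2a, 1.45% and 2.47% in neurons, 1.81% and 2.03% in NSC, and 2.96% and 2.72% in ES. N2a lay above neurons and NSC, and overlapped ES. The log2 difference of N2a over NSC was 0.88 (SE 0.28, edgeR adjusted p = 0.0191), the only one of 8 bands to pass there, against a background of 14.3%. This difference was lost without N2a replicate 2 (0.338), NSC replicate 1 (0.157), NSC replicate 2 (0.181) or ES replicate 2 (0.0508), with TMM factors (0.0792), with all listed reads as library size (0.261) and with the fewest reads per run (0.172).

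**Figure D5:**
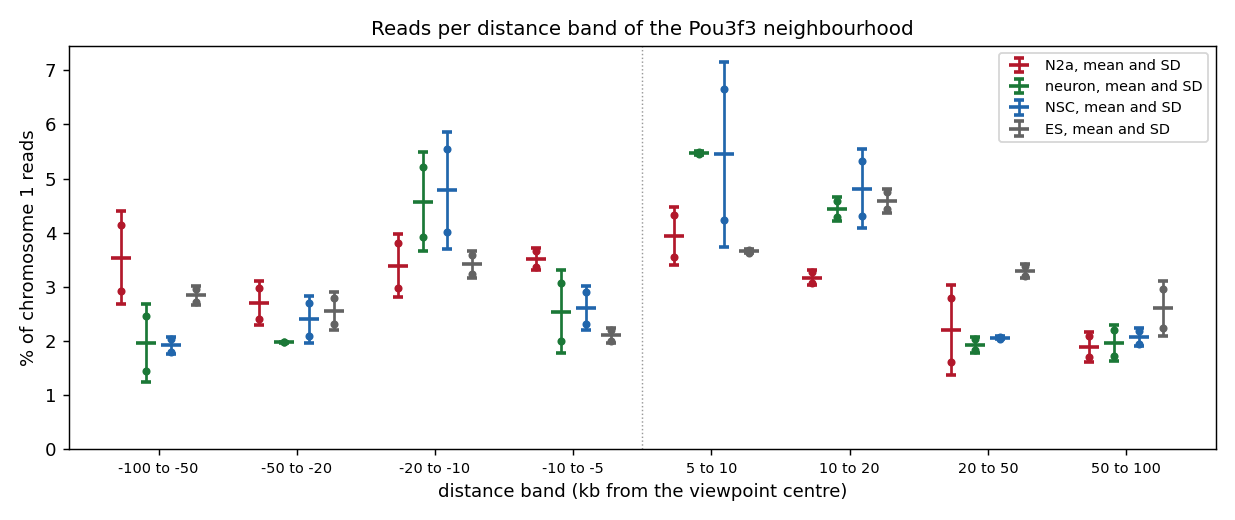
Share of chromosome 1 reads (percent) in 8 distance bands of the neighbourhood, ordered by distance from the viewpoint centre in kb; points are libraries, horizontal ticks means and bars SD (n = 2). At 20 to 50 kb downstream ES is highest, at 3.20% and 3.38%, and 100 to 50 kb upstream N2a lies above neurons and NSC.

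The deposited files give a q value for each fragment, computed by the authors within each library, and fragments with q under 0.05 lay almost wholly within 20 kb of the viewpoint. N2a had 22 and 24 such fragments in the neighbourhood, neurons 39 and 37, NSC 27 and 43, and ES 45 and 43. N2a thus had the fewest in both libraries, although N2a replicate 2 was the deepest and NSC replicate 1 the shallowest. Beyond 20 kb there were 2 in ES replicate 1, 1 in ES replicate 2 and 0 in the 6 others. These fragments made up 79.4% to 100% of all chromosome 1 fragments at that q in a library. Over all of chromosome 1 beyond 5 kb, N2a also had the fewest, 25 and 24, against 34 to 51 in the 6 others.

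Of the 449 fragments, 58 had q under 0.05 in at least 1 library and 10 in all 8, of which 8 lay downstream. Within Pantr2, whose body holds 15 fragments, N2a had 5 and 5 at that q, neurons 14 and 11, NSC 7 and 14, and ES 15 and 15. The N2a counts were below all others. Within Pantr1, N2a had 10 and 8 of 101, neurons 13 and 14, NSC 9 and 18, and ES 16 and 16. Here NSC replicate 1 lay between the N2a libraries. Dalir had 0 in every library. Gm30248 had 2, in ES replicate 1 alone.

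Among the 58 fragments with q under 0.05 in at least 1 library, 5 had it in every library but those of N2a. No fragment had it in both N2a libraries alone. Over all of chromosome 1 beyond 5 kb, N2a also had the fewest fragments at that q, 25 and 24 against 34 to 51. Of the 5, 2 lie in Pantr2 just inside its start, at 14.7 and 15.3 kb downstream. The other 3 lie upstream inside Pantr1, with midpoints at -13, -10.2 and -8.94 kb. The first of these, chr1:42684302-42684766, holds the annotated start of Gm46091 whose promoter is printed above. It held 0.124% and 0.0964% in N2a, 0.314% and 0.367% in neurons, 0.326% and 0.312% in NSC, and 0.320% and 0.231% in ES. The N2a libraries lay below all others at this fragment, on the side where N2a had the larger share of neighbourhood reads. The 5 fragments were picked by this pattern, so it is a description of them and was not tested.

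Set against the other viewpoints of the study in the same libraries, the share of reads 5 to 100 kb from Pou3f3 was in the middle of the range. It ran between 22.7% and 29.5% (median 25.02%), against medians of 19.6% for Sox2, 29.0% for Paupar, 27.9% for Pax6P0 and 26.1% for Pax6P1. It exceeded that of Sox2, a transcription factor gene of stem cells, in 8 of 8 libraries by a mean of 5.17 percentage points (exact two-sided sign-flip permutation test, p = 0.0078, the smallest possible, adjusted p = 0.0156 over 4 comparisons). It was below that of Paupar in 8 of 8 libraries (mean difference -4.07, exact permutation, adjusted p = 0.0156) and below that of the Pax6 P0 promoter in 7 of 8 (-2.91, exact permutation, adjusted p = 0.0208). From the Pax6 P1 promoter it differed by -0.72 (exact permutation, adjusted p = 0.484). The comparison is over libraries, and fragments of the viewpoints differ in number and length.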

How the data were processed

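Contacts of the Pou3f3 viewpoint were analysed in 8 libraries, 2 per cell type. Trim Galore, Bowtie and the build mm10 are named per the submitters' processing notes. What versions, enzyme, caller and duplicate removal were used was not given in the sources used here. Deposited tables hold counts of whole reads per restriction fragment, not normalized by the authors, and the authors' q-values per fragment, used only to describe fragments. Adjacent fragments often repeat a count, and listed reads exceeded the fewest reads able to give them 2.18 to 2.999 times, so reads are not independent molecules.

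Counts were summed in 5 kb windows, 14 distance bands and 24 gene bodies within 1 Mb, by fragment midpoint, leaving out 5 kb either side of the centre. One edgeR (4.0.16) robust quasi-likelihood model with 1 coefficient per cell type was fitted to all 8 libraries, with chromosome 1 reads beyond 5 kb as library size, filterByExpr (minimum count 10) and Benjamini-Hochberg adjustment over all features of a table, at a threshold of 0.05. It was tested on simulated windows with less spread between libraries than the 5 kb windows here (common dispersion 0.306). That test therefore does not give error rates for these data. Shares over the neighbourhood used exact permutation tests. DESeq2 (1.42.0), TMM and other settings were alternatives. Members, lists and tests were chosen with earlier results of these data known. Windows named were those passing any test, those with the smallest p over all cell types, those with the most reads on each side and those holding the starts of Pantr1 and Pantr2 or the end of Pou3f3; windows described by their values outside this rule were chosen after the values were seen. Replicate numbers were checked for pairing: deviations of same-numbered libraries correlated between -0.03 and 0.11, so numbers were not taken to pair libraries. No genome was used, and motifs were searched in RefSeq promoters only. Spreads between replicates rest on 2 libraries, with a coefficient of variation of 55.3% per window and 16.1% per band.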

Additional observations from a re-analysis of the deposited data

Results flagged for a closer look

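Reads of the other 4 viewpoints, all on other chromosomes, were also listed in the 200 kb Pou3f3 neighbourhood, which none of the comparisons above use. Summed over the 8 libraries there were 114 from Sox2, 98 from Paupar, 137 from Pax6P0 and 84 from Pax6P1. An even spread over chromosome 1 of each viewpoint's reads there would give 15.9, 16.1, 16.4 and 17.9. Within 5 kb of the Pou3f3 centre lay 49 of those from Sox2, 49 from Paupar, 106 from Pax6P0 and 54 from Pax6P1. Single libraries held 0 to 65 reads from Sox2, with the most in ES replicate 1, 4 to 23 from Paupar, 5 to 31 from Pax6P0 and 2 to 24 from Pax6P1. The source of these reads was not tested.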

How the results depend on the processing

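Each comparison was repeated under the alternatives, 860 repeats in all, of which 671 were scored as unchanged. For a test this meant the same side of the threshold, and for counts of passing features an equal or similar number. A change of direction could be scored only for results with a log2 difference, and 0 of these changed direction. With 2 libraries per group, counts of passing features moved readily, and no cause was tested. Neighbourhood windows passing over all cell types (2) were 1 with 10 kb windows, 1 with 2 kb windows, 1 without the low-count filter, 0 with all listed reads as library size and 0 with the grid moved by 2.5 kb. They were 3 with DESeq2 size factors, DESeq2's test, TMM factors, the fewest reads per run, reads within 1 Mb or the replicate block. For NSC over ES (0) they were 1 with 10 kb windows, DESeq2's test, the fewest reads per run or 10 kb left out, and 2 with DESeq2 size factors. For neurons over ES (1) they were 0 with 10 kb windows, 2 kb windows, the fewest reads per run, all listed reads or the moved grid, 2 with DESeq2 size factors, 5 with DESeq2's test, 3 with reads within 1 Mb as library size and 3 with the replicate block. For N2a over NSC (1) they were 0 with 10 kb windows, 2 kb windows, the fewest reads per run, all listed reads or the moved grid. Bands passing over all cell types (2) were 4 with DESeq2's test, 1 with the fewest reads per run, 0 with all listed reads and 6 with reads within 1 Mb. For NSC over ES (1) they were 2 with DESeq2 size factors, DESeq2's test or TMM factors, 0 with all listed reads and 4 with reads within 1 Mb. For neurons over ES (1) they were 2 with DESeq2 size factors, DESeq2's test, TMM factors or the replicate block, 0 with all listed reads and 5 with reads within 1 Mb. For N2a over NSC (1) they were 3 with DESeq2 size factors, 2 with DESeq2's test, 0 with TMM factors, the fewest reads per run or all listed reads, and 3 with reads within 1 Mb. Genes passing (0 in every test) were 1 over all cell types with DESeq2's test, and 1 with reads within 1 Mb over all cell types, for neurons over ES and for N2a over NSC. Neurons over NSC had 0 windows, bands and genes under every alternative.

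Leaving out 1 library at a time, windows passing ran between 0 and 4 over all cell types, 0 and 2 for NSC over ES, 0 and 3 for neurons over ES and 0 and 3 for N2a over NSC. Bands ran between 0 and 3, 0 and 2, 0 and 2, and 0 and 2 in the same order, and genes between 0 and 1 over all cell types and at 0 otherwise. Where 1 library of a group was left, it was assumed to vary like the other groups. The replicate block ended the call of the window 5 to 10 kb downstream over all cell types (edgeR adjusted p = 0.0949) and of no other named window, band or gene, and it brought those 75 to 70 kb upstream (0.0336) and 90 to 95 kb downstream (0.0350) past the threshold. Spearman correlations rose to 0.856 between replicates and 0.764 between cell types with 10 kb windows. TMM factors moved the median log2 difference of N2a over NSC over all 323 windows to 0.13, against 0.27, and that of NSC over ES to -0.24, against -0.33. The shares of the whole neighbourhood and its sides stayed above the threshold under every alternative. Depth limits all of these values, with 13172 reads in the shallowest library.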
